A study of Mus musculus with 15 samples.

Results

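The 6 conventional actins of the mouse, Actb, Actg1, Acta2, Actg2, Acta1 and Actc1, were followed in cultured oligodendrocyte precursor cells (OPCs) and oligodendrocytes (OLs) in which the gene for serum response factor (Srf) had been deleted. They were chosen by gene symbol, with earlier results of these data known, and all 6 were matched among the 45706 genes of the deposited tables. Each library is bulk polyA RNA from primary cultures of cells purified from mouse brain by immunopanning, and every animal carried SRF-floxed/floxed alleles, controls included. The SRF-KO OPCs (3 libraries) received an adeno-associated virus, AAV DJ-CMV eGFP-cre, and the control OPCs (4 libraries) the same vector with a deleted cre, on culture day 3, and both were frozen 48 h later. The SRF-KO OLs (4 libraries) received a lentivirus-CRE-IRES-GFP and the control OLs (4 libraries) a GFP virus on day 6, and both were frozen on day 3 of differentiation. The series design text names another cell type, mesenchymal stem cells, and another driver, Olig2-Cre. No sample label does, and the description here keeps to the sample labels. The labels give no age or strain, no Cre-treated cells without the floxed alleles, and no statement that libraries of a group came from separate animals or platings, so p-values measure the spread between these libraries, which may be technical.

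Actin monomers assemble into the filaments that shape the processes of an oligodendrocyte, and filament turnover accompanies the wrapping of myelin. Beta-actin (Actb) and gamma-actin (Actg1) are the cytoplasmic isoforms of nearly all cells, Acta2 and Actg2 are the smooth muscle isoforms, and Acta1 and Actc1 are those of skeletal and heart muscle. Free actin monomers hold the cofactor MRTF in the cytoplasm; when monomers are used up, MRTF enters the nucleus and, with SRF, binds DNA sites called CArG boxes, and actin genes themselves are textbook targets of this pair.

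Actb (ENSMUSG00000029580) lies at chr5:142903115-142906754 and Actg1 (ENSMUSG00000062825) at chr11:120345690-120348542, each with 6 exons. Acta2 (ENSMUSG00000035783) lies at chr19:34241090-34255590 and Actg2 (ENSMUSG00000059430) at chr6:83512905-83536265, each with 9 exons. Acta1 (ENSMUSG00000031972) lies at chr8:123891769-123894751 and Actc1 (ENSMUSG00000068614) at chr2:114047282-114053548, each with 7 exons. All are protein-coding genes on the minus strand (GRCm38, GENCODE annotation). Acta1 and Actc1 lie inside genes of the opposite strand, Gm20388 and A530058N18Rik, with 0 exon bases in common. The libraries do not mark strand, so in the OL tables, which count over introns, reads from either gene of such a pair cannot be told apart.

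The first 60 coding bases of the cytoplasmic pair are shown because the isoform shares below depend on telling them apart. The capitals mark the 9 bases at which they differ.
Actb: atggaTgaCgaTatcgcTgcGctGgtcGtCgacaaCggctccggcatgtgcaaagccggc
Actg1: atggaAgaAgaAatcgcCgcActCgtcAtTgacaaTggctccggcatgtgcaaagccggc
Over the whole coding sequence 997 of 1125 bases were identical (88.6%). No stretch of 63 bases, the read length, was shared between the spliced transcripts of the pair. Actg1 shared 1055 of its 1890 such stretches (55.8%) with other annotated genes, 934 of them with the processed pseudogene Gm12715, whereas Actb shared 116 of 1858 (6.24%), and Acta2, Actg2 and Actc1 shared none. Acta1 shared 18 of 1384 (1.30%) with genes outside the 6 actins, and 15 of its stretches with Actb.

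The 250 bases before the start site are shown for Actg1, Acta2 and Actc1 because SRF reaches its targets through CArG boxes there (RefSeq, GRCm38.p6, minus strand). The GENCODE spans given above begin further upstream than these RefSeq starts. The Actc1 window lies wholly inside its gene span, and the Acta2 and Actg1 windows lie partly inside theirs. Capitals mark CArG boxes on either strand, exact (CC, a run of A or T, GG) or with 1 letter off inside that run.
Actg1, chr11:120348496-120348745: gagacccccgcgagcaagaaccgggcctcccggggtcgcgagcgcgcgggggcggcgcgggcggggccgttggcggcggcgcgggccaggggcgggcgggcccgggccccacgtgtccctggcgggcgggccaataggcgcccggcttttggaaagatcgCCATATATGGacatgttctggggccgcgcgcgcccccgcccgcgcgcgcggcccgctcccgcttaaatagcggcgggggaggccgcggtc
Acta2, chr19:34255374-34255623: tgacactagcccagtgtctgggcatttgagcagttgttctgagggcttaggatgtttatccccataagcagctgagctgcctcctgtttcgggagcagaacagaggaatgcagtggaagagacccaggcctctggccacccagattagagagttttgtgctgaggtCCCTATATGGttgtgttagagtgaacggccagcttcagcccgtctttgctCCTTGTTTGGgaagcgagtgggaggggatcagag
Actc1, chr2:114052876-114053125: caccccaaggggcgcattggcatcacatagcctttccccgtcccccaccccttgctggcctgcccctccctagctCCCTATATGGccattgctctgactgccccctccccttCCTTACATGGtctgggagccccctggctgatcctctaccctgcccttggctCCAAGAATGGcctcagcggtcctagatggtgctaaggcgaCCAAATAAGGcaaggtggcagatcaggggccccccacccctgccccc
The Actg1 window held 1 exact box, starting 90 bases before the start site, and the Actc1 window held 1 exact box, starting 47 bases before it, with 3 boxes 1 letter off further upstream. The Acta2 window held 2 boxes, each 1 letter off. The Acta1 window held 1 exact box, 73 bases before the start, and 2 boxes 1 letter off. An exact box was found in 482 of 32851 promoter windows of the same length (1.47%), and a box exact or 1 letter off in 2823 (8.59%). A match is a description of the letters, not of binding.

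Library totals were 9074812 to 15125229 expected counts in SRF-KO OPCs and 8964310 to 16026511 in control OPCs, and 4303739 to 11721394 in SRF-KO OLs and 7188698 to 13139258 in control OLs. Srf itself had 0.196 to 0.221 normalised CPM (counts per library put on a common scale) in SRF-KO OPCs, against 5.57 to 9.67 in control OPCs, and 2.10 to 4.40 in SRF-KO OLs, against 7.13 to 9.32 in control OLs. The treatment tag of the SRF-KO OLs names the Cre lentivirus but ends in the word control; groups follow the titles, and Srf was below every control library in all 4. OL markers stood at 15049 to 21377 summed CPM in SRF-KO OLs and 22062 to 41536 in control OLs. They stood at 639 to 675 in SRF-KO OPCs and 572 to 605 in control OPCs, where Mog was at 0. Mitochondrial genes took 14.2% of counts in SRF-KO OL replicate 4 and 9.08% to 11.6% in the other 7 OL libraries, and its part in the OL results was not tested. Values without that library are given beside the Actb, Actg1, Acta2 and gene list results. The OL tables list gene lengths that span introns while the OPC tables list spliced lengths, so no level is compared between the stages.

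Actb and Actg1 together made up nearly all actin counts in every library, and in SRF-KO OPCs both were lower on average than in controls without passing the test over all genes. Actb had 3241, 2499 and 3209 normalised CPM in the SRF-KO OPCs, against 4218, 4032, 3645 and 3891 in the control OPCs. Every SRF-KO OPC library lay below every control. The mean was 2983 ± 419 in SRF-KO OPCs (SD, n = 3) and 3946 ± 241 in control OPCs (SD, n = 4), a log2 fold change of -0.40 (SE 0.092) with an adjusted p of 0.187 by edgeR's quasi-likelihood test. DESeq2 on the same counts gave -0.40 with an adjusted p of 0.0417, and edgeR without the low-count filter gave -0.41 with 0.00673, so the call depends on the tool and the filter. Without SRF-KO OPC replicate 2, the lowest library, the log2 fold change was -0.29 (edgeR adjusted p = 0.203).

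Actg1 had 4309, 3311 and 3993 normalised CPM in the SRF-KO OPCs, against 4263, 4311, 4583 and 4662 in the control OPCs. SRF-KO OPC replicate 1 lay within the range of the controls, so the groups overlapped. The log2 fold change was -0.20 (SE 0.084, 95% interval -0.37 to -0.04), with an edgeR adjusted p of 0.387. Without SRF-KO OPC replicate 2 it was -0.10.

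Of the 13271 genes tested in OPCs, 9 passed at an adjusted p under 0.05 (0.0678%). No actin was among them. The 3 actins that could be tested, Actb, Actg1 and Actc1, had an unadjusted p under 0.05, as 840 genes did with a lower level in the knockout (6.33%) and 5.57% with a higher one. DESeq2 called 1.05% of genes, Actb among them. Groups that did not overlap, with the knockout lower, were seen for 6.25% of genes, among them Actb and Actc1. Acta2, Actg2 and Acta1 did not pass the low-count filter. Among the 72 most abundant genes (average log2 CPM of 10 or more), the median log2 fold change in OPCs was -0.01 and 1 gene, Hnrnpab, lay below Actb.

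In OLs the gap between knockout and control was wider for Actb than for Actg1. Actb had 3454, 3556, 2424 and 4796 normalised CPM in the SRF-KO OLs, against 9628, 8694, 7819 and 4923 in the control OLs. The groups did not overlap, but the highest SRF-KO OL library and the lowest control library, both replicate 4, lay close to each other. The mean was 3557 ± 971 in SRF-KO OLs and 7766 ± 2034 in control OLs (SD, n = 4 each), a log2 fold change of -1.13 (SE 0.27, edgeR adjusted p = 0.154). DESeq2 gave -1.13 with an adjusted p of 0.00120, and edgeR without the low-count filter -1.14 with 0.0305. Leaving out SRF-KO OL replicate 4 gave -1.32 (edgeR adjusted p = 0.0151) and leaving out control OL replicate 4 gave -1.29 (edgeR adjusted p = 0.0498), while the other 6 omissions left the adjusted p above the threshold.

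Actg1 had 4221, 4583, 3945 and 5231 normalised CPM in the SRF-KO OLs, against 7783, 6416, 5521 and 4268 in the control OLs. Control OL replicate 4 lay among the knockouts, so the groups overlapped. The log2 fold change was -0.42 (SE 0.22, 95% interval -0.84 to 0.01), with an edgeR adjusted p of 0.518. Without SRF-KO OL replicate 4 it was -0.52 (edgeR adjusted p = 0.163), and without control OL replicate 1 it was -0.27.

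Of the 15193 genes tested in OLs, 45 passed at an adjusted p under 0.05 (0.296%), and no actin was among them by edgeR. Actb had an unadjusted p under 0.05 in edgeR's test, as 5.73% of genes did with a lower level in the knockout and 5.84% with a higher one. DESeq2 called 1.97% of genes, Actb among them. Without SRF-KO OL replicate 4, edgeR called 636 genes. Actb was the 1 actin whose groups did not overlap with the knockout lower, as 3.89% of all genes were. The actins that could be tested in OLs were Actb, Actg1 and Acta2. Highly abundant genes were mostly lower in the SRF-KO OLs. Among the 90 genes with an average log2 CPM of 10 or more the median log2 fold change was -0.42, equal to that of Actg1 to 2 decimals, and 79 were negative, against 46.1% of all genes tested. Of these 90 genes 7 lay below Actb and 45 below Actg1. When counts were scaled by library totals alone, the median of all genes moved to 0.24, against 0.02 with TMM scaling, and the log2 fold changes were -0.89 for Actb and -0.17 for Actg1.

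**Figure D1:**
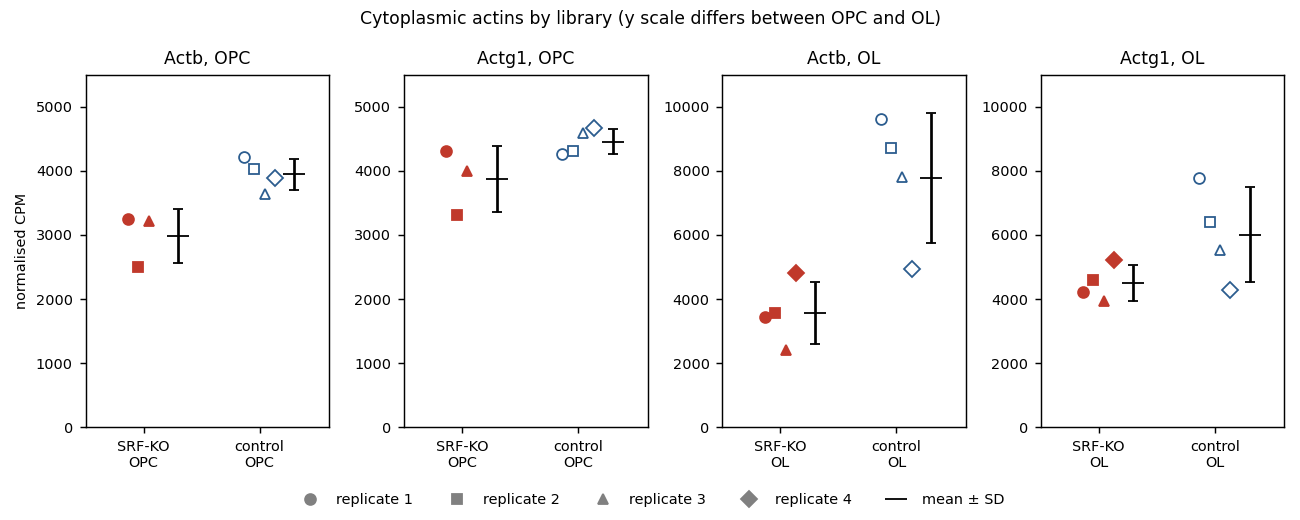
Normalised CPM of Actb and Actg1 in each library, with SRF-KO libraries filled and control libraries open. Black marks give mean ± SD. Actb did not overlap between groups in either stage (highest SRF-KO OPC 3241, lowest control OPC 3645; highest SRF-KO OL 4796, lowest control OL 4923), while Actg1 overlapped in both.

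Markers of cell type stood apart with the actin values. The summed CPM of OL markers and that of astrocyte markers were each lower in every SRF-KO OL library than in every control. OL markers stood as given above, with 11 of 11 tested members at a negative log2 fold change, against 46.1% of all genes. At an unadjusted p under 0.05 by edgeR 8 of them were lower (5.73% of all genes). Of these 1 passed (0.296% of all genes), the myelin membrane gene Opalin (log2 -1.37, edgeR adjusted p = 0.0228). Astrocyte markers summed to 8952 to 14124 CPM in SRF-KO OLs and 17205 to 34642 in control OLs. The highest of them was Gfap, the astrocyte intermediate filament gene, at a mean of 7486 in SRF-KO OLs and 18738 in control OLs. Of the 8 tested members 7 were negative and none passed. Gfap was the 1 member lower at an unadjusted p under 0.05 by edgeR (5.73% of all genes), so the sum mostly follows that gene. No marker on either list was at 0 in all libraries of an OL group. In OPCs the OPC markers stood lower, at 4743 to 6216 summed CPM in SRF-KO OPCs and 6403 to 6754 in control OPCs without overlap. Of the 8 members 7 were negative, 2 were lower at an unadjusted p under 0.05 by edgeR (6.33% of all genes), and 0 passed. None of them was at 0. Astrocyte markers in OPCs stood the other way, at 1416 to 1528 summed CPM in SRF-KO OPCs and 1153 to 1271 in control OPCs. All 8 members were positive, 5 were higher at an unadjusted p under 0.05 by edgeR (5.57% of all genes), and 0 passed. The part of these shifts in the actin values was not tested, and in bulk RNA fewer cells of a type and less RNA per cell cannot be told apart.

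The make-up of the actin pool differed between SRF-KO and control OLs. Expressed as a share of the counts of all 6 isoforms, which needs no library scaling, Actb was 44.8%, 43.5%, 37.8% and 47.5% in the SRF-KO OLs, against 55.2%, 57.4%, 58.4% and 53.4% in the control OLs. Every knockout library lay below every control. The Actb share fell to 43.4% ± 4.1 in SRF-KO OLs, against 56.1% ± 2.3 in control OLs (SD, n = 4 each), a difference of -12.7 percentage points (two-sided exact permutation test, p = 0.0286, the smallest this design allows). Without SRF-KO OL replicate 4 it was -14.1 points. Actg1 took up nearly all of the difference, at 56.0% ± 4.0 in SRF-KO OLs and 43.6% ± 2.2 in control OLs (+12.4 points, exact permutation p = 0.0286), and since these isoforms fill the pool, their shares are close to mirror images and not independent results. The ratio of Actb to Actg1 counts was 0.614 to 0.917 in SRF-KO OLs, so Actg1 led in all 4, and 1.15 to 1.42 in control OLs, so Actb led in all 4. Counted as TPM, which divides by length, the ratio was 0.708 to 1.04 in SRF-KO OLs and 1.58 to 2.12 in control OLs. In all, 11 shares were tested over both stages, and their p-values are not adjusted.

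In OPCs the Actb share overlapped between the groups. Actb was 42.9%, 43.0% and 44.5% of actin counts in the SRF-KO OPCs, against 49.7%, 48.3%, 44.3% and 45.4% in the control OPCs. Control OPC replicate 3 lay inside the knockout range. The means were 43.5% ± 0.9 in SRF-KO OPCs (SD, n = 3) and 46.9% ± 2.5 in control OPCs (SD, n = 4), a difference of -3.45 points (exact permutation p = 0.114). The ratio of Actb to Actg1 in TPM was 0.737 to 0.791 in SRF-KO OPCs and 0.791 to 0.982 in control OPCs, so Actg1 was the more abundant per length in 7 of 7 OPC libraries.

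The share values in OLs stood beside a difference in how reads were assigned. Processed pseudogenes whose sequence matches Actg1 held counts equal to 50.7% to 60.1% of Actg1's own in SRF-KO OLs and 59.7% to 62.1% in control OLs, while in OPCs they held 0.931% to 0.997% in SRF-KO libraries and 0.979% to 0.997% in controls. For Actb they held 10.0% to 12.2% in SRF-KO OLs and 8.60% to 9.00% in control OLs, and at most 0.00904% in OPCs. With pseudogene counts added to their parent gene, an alternative chosen after seeing the data, the Actb share was 36.2%, 34.9%, 30.0% and 39.9% in SRF-KO OLs, against 45.3%, 47.9%, 48.6% and 43.6% in control OLs. The groups again did not overlap, with a difference of -11.1 points (exact permutation p = 0.0286), and Actg1 then led in every OL library. The length listed for Actb, an average over its transcript models, was 1909 to 2196 bases in SRF-KO OLs and 1632 to 1782 in control OLs without overlap, which enters the TPM values but not the counts.

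**Figure D2:**
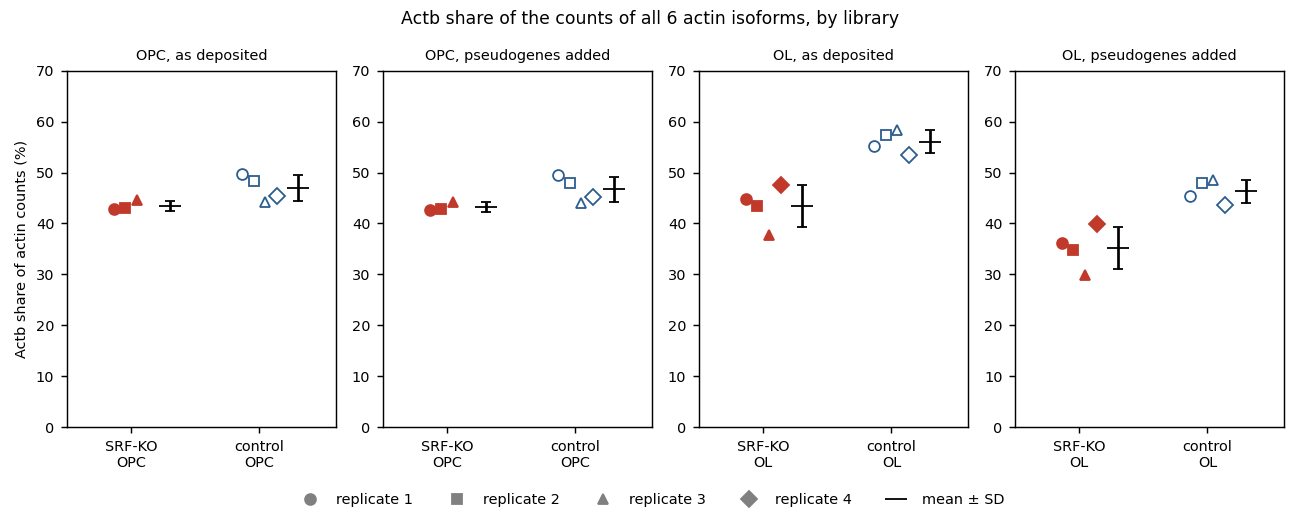
Actb as a percentage of the summed counts of the 6 isoforms in each library, as deposited and with pseudogene counts added to the parent gene. SRF-KO libraries are filled, control libraries open, and black marks give mean ± SD. In OLs the SRF-KO and control libraries separate in both panels (43.4% and 56.1% as deposited, 35.2% and 46.3% with pseudogenes added), while in OPCs they overlap.

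Summed over the 6 isoforms, actin took 0.754%, 0.587% and 0.727% of all counts in the SRF-KO OPCs, against 0.826%, 0.823%, 0.837% and 0.857% in the control OPCs. In OLs it took 0.835%, 0.874%, 0.725% and 1.04% in the SRF-KO libraries, against 1.45%, 1.34%, 1.22% and 1.01% in the controls. The OPC groups did not overlap, and in OLs the replicate 4 libraries of the 2 groups crossed.

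The knockout effect on no actin differed between the stages at an adjusted p under 0.05, as 18 of 16135 genes did (0.112%). For Actb the difference of log2 fold changes, OL minus OPC, was -0.73 (SE 0.29, 95% interval -1.31 to -0.16), with an edgeR adjusted p of 0.442. DESeq2 called none of the actins here either, with an adjusted p of 0.291 for Actb. For Actg1 it was -0.22 (95% interval -0.68 to 0.23, edgeR adjusted p = 0.835) and with scaling by library totals 0.013. Cells of each stage received another virus and were frozen at another time. The OL tables also list gene lengths that span introns, and the OPC tables spliced lengths. Pseudogenes that match Actg1 held counts equal to 50.7% to 62.1% of its own in OLs and at most 0.997% in OPCs. Stage cannot be told apart from any of these.

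The smooth muscle isoform Acta2 was close to the detection limit in OPCs. It had 0, 4 and 10 counts in the SRF-KO OPCs, against 4, 11, 10 and 4 in the control OPCs. Pooled over libraries this was 0.419 CPM in SRF-KO OPCs (95% Poisson interval 0.229 to 0.703) and 0.576 CPM in control OPCs (0.385 to 0.827), intervals that cover counting error only, and no difference was detectable at this depth.

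In OLs Acta2 was well counted and its level overlapped between groups. It had 32.7, 39.2, 47.1 and 66.4 normalised CPM in the SRF-KO OLs, against 32.9, 48.5, 40.9 and 36.7 in the control OLs. SRF-KO OL replicate 4 was the highest of the 8 libraries. The log2 fold change was 0.21 (SE 0.21, 95% interval -0.20 to 0.63, edgeR adjusted p = 0.767), and without that library it was -0.042. As a share of the smaller actin pool Acta2 was 0.424%, 0.479%, 0.734% and 0.658% in the SRF-KO OLs, against 0.189%, 0.320%, 0.305% and 0.398% in the control OLs. The groups did not overlap (means 0.574% ± 0.146 in SRF-KO OLs and 0.303% ± 0.086 in control OLs, exact permutation p = 0.0286). They stayed apart without any 1 library, the lowest SRF-KO OL share being 0.424% and the highest control OL share 0.398%. The two-sided exact permutation test gave p = 0.0571 without any 1 of the 4 controls or without SRF-KO OL replicate 3. With groups of unequal size a reversed split can give a larger difference, so this p does not mark an overlap. The OL tables give Acta2 a length of 14247 bases, nearly its whole gene with introns, so these counts are not those of spliced mRNA alone. Markers of mural and smooth muscle cells summed to 32.2 to 54.4 CPM in SRF-KO OLs and 33.6 to 40.6 in control OLs, with 5 of 6 tested members positive. The 1 negative member was the highest, Tagln, at a mean of 18.1 in SRF-KO OLs and 20.6 in control OLs. Cnn1 stood the other way, at a mean of 10.4 in SRF-KO OLs and 5.48 in control OLs. Both are also on the list of SRF and MRTF targets below. Des was at 0 in all SRF-KO OLs and Higd1b at 0 in all control OLs. The part of these markers in the Acta2 value was not tested.

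Actg2, the isoform of gut and bladder muscle, had 0 counts in all 7 OPC libraries, which allows a level of up to 0.0898 CPM over the SRF-KO OPCs and 0.0595 CPM over the control OPCs. In OLs it had 3, 0, 1 and 0 counts in the SRF-KO libraries, against 1, 2, 2 and 4.23 in the controls. These values are too low to compare.

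Actc1, the heart muscle isoform, was the one muscle-type actin that could be tested in OPCs, and its level there was lower in the knockout without passing the test. It had 56, 59 and 27 counts in the SRF-KO OPCs, against 87, 135, 79 and 109 in the control OPCs. In normalised CPM this was 6.18, 3.86 and 2.90 in SRF-KO OPCs, against 6.49, 8.55, 8.68 and 9.37 in control OPCs. The groups did not overlap, though SRF-KO OPC replicate 1 was just under control OPC replicate 1. The means were 4.32 ± 1.69 (SD, n = 3) in SRF-KO OPCs and 8.27 ± 1.24 (SD, n = 4) in control OPCs, a log2 fold change of -0.94 (SE 0.28, edgeR adjusted p = 0.263), and DESeq2 gave an adjusted p of 0.0790. Its share of actin counts was 0.0628% ± 0.021 in SRF-KO OPCs and 0.0984% ± 0.015 in control OPCs (exact permutation p = 0.0857). Striated muscle markers summed to 0.107 to 1.96 CPM in SRF-KO OPCs and 0.859 to 1.98 in control OPCs, below Actc1 itself in every library, with Ckm, Myh4, Myh1 and Myog at 0 in all 7. In OLs Actc1 had 0 to 3.79 counts in SRF-KO libraries and 1 to 3 in controls.

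Acta1, the skeletal muscle isoform, had 1, 0 and 0 counts in the SRF-KO OPCs, against 0, 1, 0 and 0 in the control OPCs. In OLs it had 0, 1, 1.82 and 1.03 counts in the SRF-KO libraries, against 4.73, 8.85, 6.1 and 0 in the controls. Pooled, this was 0.125 CPM in SRF-KO OLs (95% Poisson interval 0.034 to 0.319) and 0.434 CPM in control OLs (0.265 to 0.670), intervals that cover counting error only. Acta1 shares 15 stretches of read length with Actb, and several of its OL counts are fractional. The part of Actb reads in these values was not tested. Control OL replicate 4 at 0 lay among the knockouts, so the groups overlapped, and the OL tables count over introns that lie within Gm20388. Per length, the order of levels in OPCs of either group was Actg1, Actb, Actc1, Acta2, Acta1 and Actg2, in which Acta1 and Actg2 did not differ beyond their counting error.

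**Figure D3:**
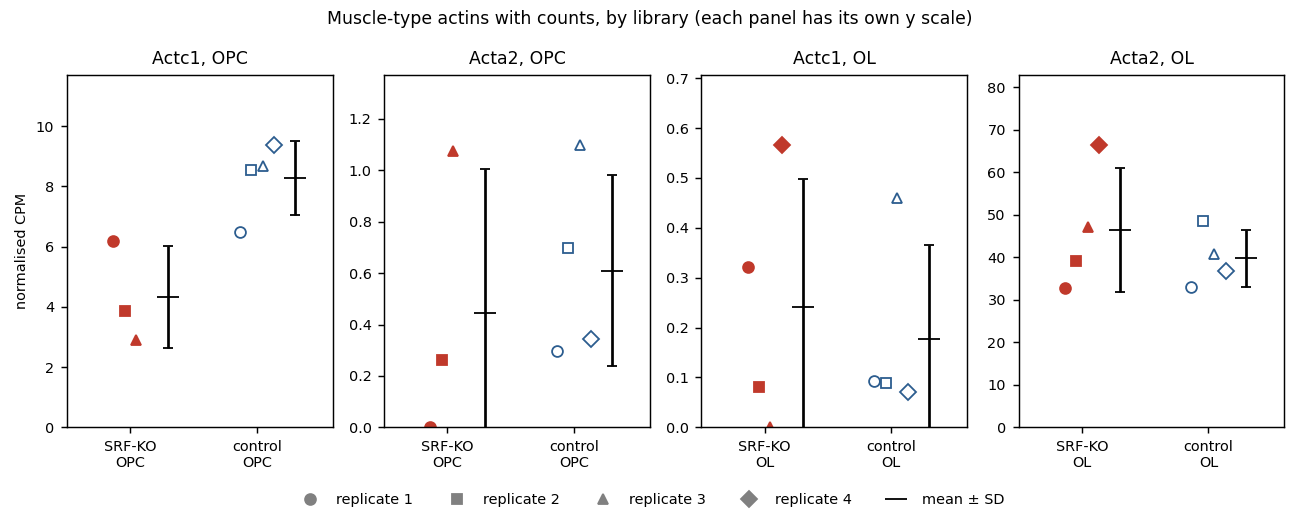
Normalised CPM of Actc1 and Acta2 in each library, SRF-KO libraries filled and control libraries open, with mean ± SD in black (bars end at the axis where they would pass 0). Actc1 in OPCs is 2.90 to 6.18 in SRF-KO and 6.49 to 9.37 in control libraries; the other panels overlap, and Actc1 in OLs and Acta2 in OPCs rest on at most 11 counts a library.

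Across processing choices the sign for Actb did not change in either stage. The log2 fold change of Actb lay between -0.48 and -0.39 in OPCs and between -1.14 and -0.89 in OLs over the 7 alternatives that kept all libraries. Actg1 lay between -0.27 and -0.19 in OPCs and between -0.46 and -0.08 in OLs, and passed the test in none.

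**Figure D4:**
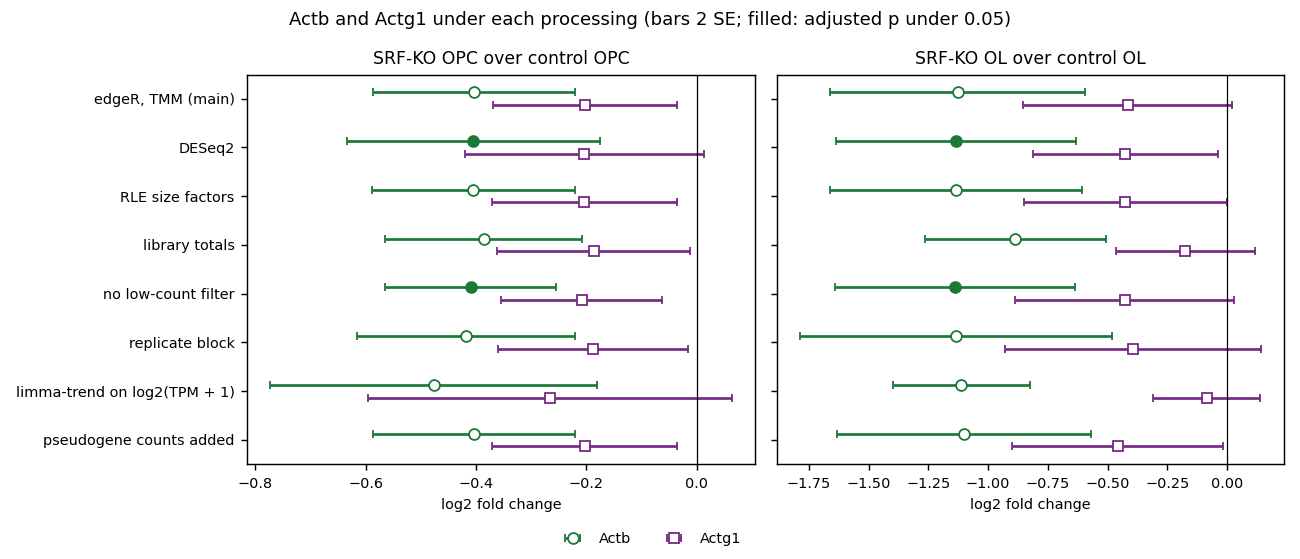
Log2 fold change of Actb (circles) and Actg1 (squares) in SRF-KO over control cells under the main processing and 7 alternatives. Bars span 2 SE to each side and filled symbols mark an adjusted p under 0.05, which Actb reaches with DESeq2 and without the low-count filter in both stages and Actg1 in neither.

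The partners of actin were read from lists of textbook genes, chosen with earlier results of these data known. Among actin-binding targets of SRF and MRTF, 18 of 24 tested were negative in OPCs, against 50.2% of all genes, with a median log2 fold change of -0.17 against -0.00 for all genes. At an unadjusted p under 0.05 there were 7 lower and 0 higher (6.33% and 5.57% of all genes), and 1 passed (0.0678% of all genes). That gene was Lima1, which crosslinks filaments, at 71.0, 74.1 and 78.0 normalised CPM in SRF-KO OPCs, against 120, 122, 117 and 107 in control OPCs (log2 -0.65, SE 0.087, edgeR adjusted p = 0.0300). Every SRF-KO OPC library lay far below every control. The call for Lima1 rests on all 7 libraries, since the list had no call when any 1 was left out. With all 7 kept, the list also had no call with the replicate number as a block or with limma on log2(TPM + 1). Cnn2, a calponin that steadies filaments, had 3.78 ± 1.03 in SRF-KO OPCs and 10.1 ± 2.0 CPM in control OPCs without overlap (log2 -1.45, edgeR adjusted p = 0.0937).

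In OLs 22 of 25 genes of that list were negative, against 46.1% of all genes, with a median of -0.16 against 0.02 for all genes, and 0 passed with edgeR. At an unadjusted p under 0.05 there were 4 lower and 1 higher (5.73% and 5.84% of all genes), and DESeq2 called 3 lower and 1 higher (1.97% of all genes). Without SRF-KO OL replicate 4, edgeR called 4 lower and 1 higher, among 636 genes called in all. With scaling by library totals 11 were negative, 1 was called higher and the median was 0.06 against 0.24 for all genes. Csrp1, a LIM protein on filaments, had 82.5 ± 7.1 CPM in SRF-KO OLs and 123 ± 18 in control OLs without overlap (log2 -0.57, edgeR adjusted p = 0.170). Cnn1, the calponin of smooth muscle, stood the other way at 8.05, 8.75, 10.3 and 14.3 CPM in SRF-KO OLs, against 6.14, 5.81, 5.20 and 4.75 in control OLs (log2 0.89, edgeR adjusted p = 0.144). An exact CArG box lay in the promoter window of 8 of the 25 list genes found in the RefSeq table, Lima1 and Cnn2 among them. Of all promoter windows 1.47% held one, but a list gene counted if any of its windows did, so the units differ. The list is one of textbook SRF targets, so this count is a description only.

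Of SRF and its cofactors, Srf passed in both stages (log2 -5.16, edgeR adjusted p = 0.000569 in OPCs; log2 -1.45, edgeR adjusted p = 0.0224 in OLs). In OLs the call was lost in 6 of 8 fits that left out 1 library (it held when either of the libraries numbered 4 was omitted), with the replicate number as a block and with limma on log2(TPM + 1). The cofactors with the smallest p were Elk4 in OPCs (log2 -0.37, edgeR adjusted p = 0.365) and Elk3 in OLs (log2 -0.40, edgeR adjusted p = 0.482), members of the ternary complex family that competes with MRTF for SRF.

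Genes that bind actin monomers gave no edgeR call in either stage. Their median was -0.03 in OPCs, with 6 of 11 negative, and -0.14 in OLs, with 7 of 11 negative. At an unadjusted p under 0.05 by edgeR there was 1 higher in OPCs (5.57% of all genes) and 2 lower in OLs (5.73%). DESeq2 called 0 in OPCs (1.05% of all genes) and 1 in OLs (1.97%). Without SRF-KO OL replicate 4, edgeR called 2 of them lower (median -0.39), among 636 genes called in all. Library totals turned the OL median to 0.09, against 0.24 for all genes. Dstn, the filament-severing destrin, had 468 ± 17 CPM in SRF-KO OPCs and 404 ± 23 in control OPCs, and Cap2, a cyclase-associated protein, 47.1 ± 3.3 in SRF-KO OPCs and 54.9 ± 4.1 in control OPCs. Cfl1, the main cofilin, had 1145 ± 160 in SRF-KO OLs and 1940 ± 556 in control OLs (log2 -0.76, edgeR adjusted p = 0.229), and the monomer-holding Tmsb10 64.5 ± 16.2 in SRF-KO OLs and 96.5 ± 23.8 in control OLs.

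The chaperones that fold new actin, the CCT chaperonin and prefoldin, had 12 of 15 negative in OPCs (median -0.04) and 12 of 15 positive in OLs (median 0.08), with no edgeR call in either stage. At an unadjusted p under 0.05 there were 2 lower and 1 higher in OPCs and 0 in OLs, and DESeq2 called 1 lower in OPCs and 0 in OLs. Of all genes, 6.33% were lower and 5.57% higher at an unadjusted p under 0.05 by edgeR in OPCs, and 5.73% and 5.84% in OLs. DESeq2 called 1.05% of all genes in OPCs and 1.97% in OLs. Without SRF-KO OL replicate 4, edgeR called 1 chaperone lower in OLs, among 636 genes called in all. With scaling by library totals 0 of 15 chaperones were negative in OLs (median 0.30) and 12 of 15 in OPCs (median -0.03). The OL median of all genes also rose with that scaling, as given above. With the main scaling 50.2% of all genes were negative in OPCs and 46.1% in OLs. Tcp1, a chaperonin subunit, was the clearest in OPCs at 690, 676 and 682 CPM in the SRF-KO libraries, against 796, 816, 872 and 825 in the controls (log2 -0.28, edgeR adjusted p = 0.201). Cct6a, another subunit, had 617 ± 25 in SRF-KO OPCs and 729 ± 38 in control OPCs. Neither group pair overlapped. In OLs the smallest p-values belonged to Pfdn4 (23.8 ± 7.6 in SRF-KO OLs and 18.2 ± 2.0 CPM in control OLs) and Cct3 (240 ± 12 in SRF-KO OLs and 208 ± 20 in control OLs).

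Enzymes that modify actin also gave no call by edgeR or DESeq2 with all libraries kept. Their medians were -0.09 in OPCs, with 4 of 6 negative, and -0.31 in OLs, with 5 of 6 negative. At an unadjusted p under 0.05 by edgeR there were 2 lower in OPCs (6.33% of all genes) and 1 higher in OLs (5.84%). Leaving out SRF-KO OL replicate 4 gave an OL median of -0.21, with 5 of 6 negative and 0 called by edgeR. Without control OL replicate 4, edgeR called 1 of them higher in OLs. Setd3, which methylates an actin histidine, had 73.0 ± 8.3 CPM in SRF-KO OPCs and 88.0 ± 5.4 in control OPCs, and Mical1, which oxidises actin, 20.5 ± 3.7 in SRF-KO OPCs and 27.7 ± 4.1 in control OPCs. Mical3, its relative, had 26.7 ± 2.0 in SRF-KO OLs and 33.1 ± 6.2 in control OLs. Ate1, which adds arginine to actin, was counted in every SRF-KO OL library, the lowest at 9.49 CPM, against 0, 0, 0 and 8.31 CPM in the control OLs (log2 2.42, edgeR adjusted p = 0.333). Its groups did not overlap, with the knockout higher, as in 4.17% of genes.

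Actin-related proteins, relatives that work in branching, transport and chromatin, had medians of -0.04 in OPCs and -0.03 in OLs, with 7 of 10 negative in each and no call by edgeR or DESeq2. At an unadjusted p under 0.05 by edgeR there was 1 lower in OPCs (6.33% of all genes) and 0 in OLs. Library totals turned the OL median to 0.19, below the 0.24 of all genes. Leaving out SRF-KO OL replicate 4 gave an OL median of 0.01, with 5 of 10 negative and 0 called by edgeR. Actr3, of the branching complex, had 281 ± 12 CPM in SRF-KO OPCs and 324 ± 27 in control OPCs, and Actl6a, a chromatin remodeller subunit, 165 ± 7 in SRF-KO OPCs and 181 ± 8 in control OPCs. Actr6 had 13.4 to 16.7 in SRF-KO OLs and 11.6 to 13.5 in control OLs, and Actr1a, of the dynactin filament, 145 ± 35 in SRF-KO OLs and 183 ± 19 in control OLs.

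**Figure D5:**
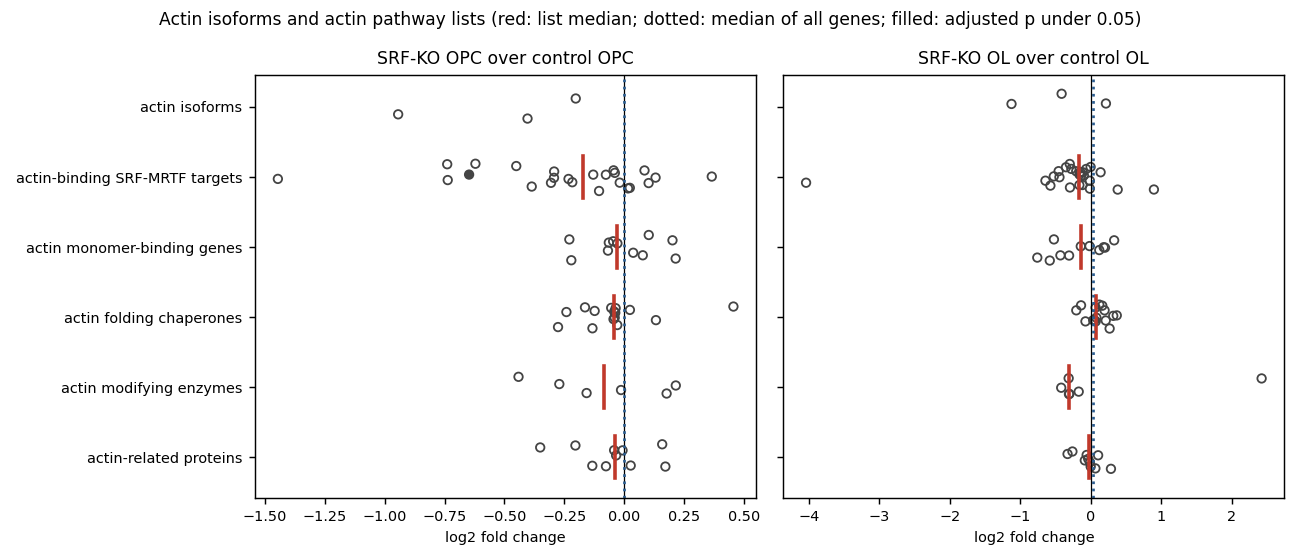
Log2 fold change of each tested gene of the actin lists in SRF-KO over control cells, by stage. Red lines mark list medians (not drawn for the isoforms), the dotted line the median of all genes, and filled points an adjusted p under 0.05, which Lima1 alone reaches; the lowest point in OLs is Filip1l (log2 -4.04, edgeR adjusted p = 0.400).

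Gene by gene likeness to the cytoplasmic actins is given as a description. Over the 15 libraries, each centred on its stage, the highest Pearson correlations with Actb among 8401 genes were those of Calm3 (r = 0.94), Marcksl1 (0.92), Eef1a1 (0.91), Gapdh (0.91) and Cdk8 (0.91, itself called lower in OLs at log2 -2.63, edgeR adjusted p = 0.0201), with Actg1 at rank 16 (0.89). For Actg1 they were Vim (0.95), Gapdh (0.95), Rnf187 (0.94), Gpr37l1 (0.93) and Rhog (0.93), with Actb at rank 17. These correlations describe points that share libraries, scaling and the knockout itself.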

How the data were processed

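Smart-seq2 polyA libraries were sequenced as single, unstranded reads of 63 bases, per the labels' protocols. The authors used bcl2fastq, STAR and RSEM, with GRCm38 and Rnor_6.0 as builds, per the submitters' processing notes; versions and the build of each sample are not given in the sources used here. Each deposited file gives an expected count (RSEM's estimate, which splits reads of near-identical genes) and a TPM per gene. In the OL files 90.0% of 8995 single-transcript genes have a listed length equal to the gene span, in the OPC files 0%, where 89.8% equal the spliced length. Expected counts were rounded, filtered by expression and scaled by TMM; each stage was fitted apart with edgeR 4.0.16 (quasi-likelihood test, Benjamini-Hochberg over all genes tested, threshold 0.05, R 4.3.3), and the stages together for the difference of effects. Normalised CPM is edgeR's CPM with the TMM-scaled total. Isoform shares were compared by exact permutation with scipy 1.17.1. Alternatives were DESeq2 1.42.0, limma 3.58.1 on log2(TPM + 1), other scalings, no filter, the replicate number as a block, each library left out and, added after seeing the data, pseudogene counts added to the parent gene. The edgeR script was tested on simulated data. Members and gene lists were chosen with earlier results of these data known; 164 of 165 list members were matched. From each list the text names genes that passed and, for the actin pathway, the 2 with the smallest p in each stage; for likeness, the 5 with the highest r. Sequences and promoters come from the GENCODE transcripts and RefSeq; Actb and Actg2 promoters were not used here. A count of 0 was taken to allow up to 3 counts over a group.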

Additional observations from a re-analysis of the deposited data

Results flagged for a closer look

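In 3 of 82 sets of 4 libraries examined, 1 library stood far from the other 3; chance alone gives about 1 in 20 such sets. All 3 concern Actc1 in control OL replicate 3, seen as normalised CPM (0.459), as share of actin counts (0.00343%) and as TPM (0.18). The library held 3 counts of Actc1 and each of the other control OLs 1, so all 3 values describe the same 3 counts.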

How the results depend on the processing

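The number of genes called moved more than the actin values did. In OPCs edgeR called 9 genes, DESeq2 139 and edgeR with no low-count filter 101, while limma on log2(TPM + 1) called 5 and leaving out 1 library called 1 to 4. In OLs edgeR called 45 (10 higher, 35 lower), DESeq2 299, no filter 129, library totals 74 (39 higher, 35 lower), limma 3, and leaving out 1 library 7 to 636, the last without SRF-KO OL replicate 4. For the difference of effects edgeR called 18, DESeq2 169 and leaving out 1 library 4 to 134. Actb passed with DESeq2 (log2 -0.40 in OPCs, -1.13 in OLs) and with no filter (-0.41 and -1.14); without 1 library it lay between -0.47 and -0.29 in OPCs and between -1.32 and -0.98 in OLs. These values changed sign: Acta2 in OLs lay between -0.042 and 0.35 without 1 library, the Actg1 difference of effects was 0.013 with library totals, and the Actg2 share difference in OLs, on at most 4.23 counts a library, lay between -0.000727 and 0.000372 points. Without 1 library the share differences in OPCs also spanned 0 for Acta2 (-0.00505 to 0.0024 points) and Acta1 (-0.00019 to 0.000541 points), on at most 11 counts a library. The Acta2 share difference in OLs lay between 0.217 and 0.321 points without 1 library. The cause of these changes was not tested. With the replicate number as a block, edgeR called 2 genes in OPCs, 5 in OLs (Srf not among them) and 0 for the difference of effects (where 1078 had an unadjusted p under 0.05), with Actb at -0.42 in OPCs and -1.13 in OLs. Same-numbered libraries correlated in their deviations from the group mean at r -0.02 to 0.05 in OPCs and -0.28 to 0.03 in OLs. Differently numbered pairs spanned -0.05 to 0.05 in OPCs and -0.23 to 0.28 in OLs. These values cannot tell whether same-numbered libraries shared an animal or a plating. The paired sign-flip test of shares cannot reach 0.05. Depth limits Actg2 and Acta1 in both stages, Acta2 in OPCs and Actc1 in OLs.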
